A study of Mus musculus with 6 samples.

Results

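The gene families of the epidermal differentiation complex, the run of cornified envelope and calcium-binding genes on mouse chromosome 3, were compared between 2 groups of sorted epidermal cells. Members were all rows of the count table named Lce, Sprr or S100a, together with Flg, Flg2, Hrnr, Rptn, Tchh, Tchhl1, Lor, Ivl, Kprp, Crct1, Smcp and Pglyrp3. Names ending in -ps were left out (3 rows). The rule found 62 of 54532 genes: 21 Lce, 15 Sprr, 14 S100a, 6 genes of the fused type (Flg, Flg2, Hrnr, Rptn, Tchh and Tchhl1) and 6 single genes. All 62 lie between 90511034 and 93564643 of chromosome 3 (GRCm38), over 3.05 Mb.

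The cells came from dissociated back-skin epidermis of C57BL/6 mice, male and female, aged 4 weeks. The NCAM-enriched group (labelled NCAM+/DAPI-, Merkel cells) held 3 libraries of cells selected with beads and then by sorting for PSA-NCAM, and the bulk skin group held 3 libraries of DAPI-negative cells without that selection. Each library came from 500 sorted events, sequenced as Smart-seq2 cDNA, and held 1343190 to 4481830 counts, so that 1 count was worth 0.216 to 0.773 normalised CPM (the count divided by the scaled size of its library). The sources used here do not tie the libraries to separate animals, so p-values measure only the spread between libraries.

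The cornified envelope is the protein shell that replaces the membrane of a keratinocyte at the end of its life. Its scaffold and filler proteins (involucrin, loricrin, the small proline-rich and late cornified envelope proteins) are cross-linked by transglutaminases, and the fused-type proteins are S100-headed repeat proteins of the granular layer, of which profilaggrin is the best known. The S100 proteins at the ends of the complex are small calcium-binding proteins, many of which are also made outside keratinocytes.

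The Merkel cell label was checked against 13 marker genes. Of 12 tested, 5 were higher in the NCAM-enriched group and 0 lower, Pou4f3 (a sensory transcription factor) and Krt20 (a Merkel cell keratin) among them, and the summed CPM of the list was 519 to 2530 against 177 to 445 in bulk skin. Merkel cell markers were lowest in NCAM-enriched library 3 (519, near the highest bulk skin sum of 445), while libraries 1 and 2 reached 2115 and 2530. Basal keratinocyte genes summed to 10426, 8658 and 32416 over libraries 1, 2 and 3, with 13178 to 17443 in bulk skin. Library 3 thus stood apart for both of these lists. NCAM-enriched library 2 stood apart for 6 fibroblast genes, which summed to 33003 CPM, against 363 and 41.7 in libraries 1 and 3. Bulk skin held these at 10356 to 18198. For the members and sums that library 2 moves most, values without it are given beside those with it.

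Many members are near copies or hold repeats, which bears on what 50-base reads can assign. Of the 50-base windows in each member's longest transcript, under 80% were found once in the transcriptome (GENCODE M21) for 19 members, and all were for 22. The windows below are printed because reads from them cannot be placed in 1 gene or 1 position. The first is present in 3 of 11 Sprr2 genes, the second in 10 of 14 Lce1 genes, and the others occur 16 and 10 times within 1 transcript of Hrnr and Flg2.
Sprr2a2, chr3:92253905-92253954, plus strand: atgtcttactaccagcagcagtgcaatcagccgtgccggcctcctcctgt
Lce1d, chr3:92685731-92685780, minus strand: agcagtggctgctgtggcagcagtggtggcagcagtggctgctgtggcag
Hrnr, chr3:93323713-93323762, plus strand: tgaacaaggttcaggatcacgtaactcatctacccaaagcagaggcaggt
Flg2, chr3:93203941-93203990, plus strand: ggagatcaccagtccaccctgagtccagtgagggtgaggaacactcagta
The share of windows found once was 3.72% for Sprr2a1 and 3.55% for Sprr2a2, 20.8% for Flg, 30.9% for Hrnr and 34.7% for Flg2. In the fused-type genes the remaining windows of these 3 were repeats within the gene itself. The share was 100% for Lor, Sprr1a, S100a6 and S100a10. How reads with several positions were counted is not given in the sources used here, so counts of single Sprr2a, Lce1 and Lce3 genes are uncertain.

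**Figure D1:**
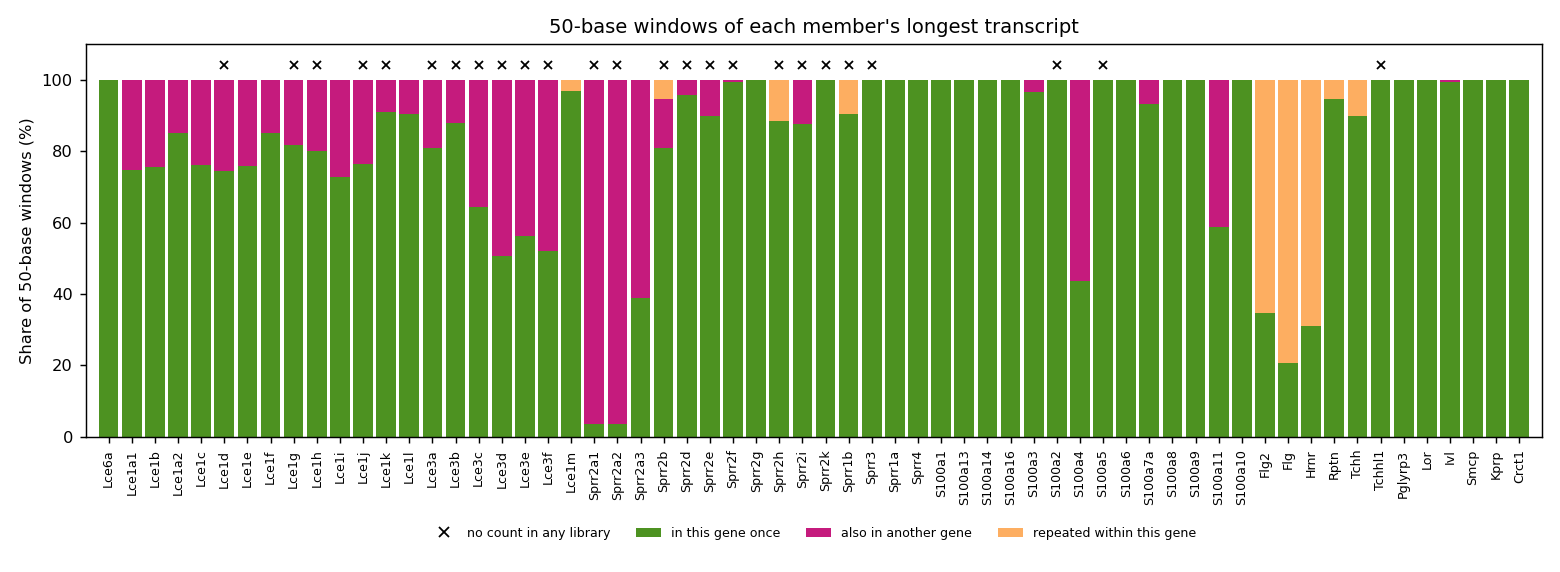
Share (%) of the 50-base windows of each member's longest transcript that occur once (green), also in another gene (pink) or more than once within the gene (orange), with a cross over members without a count in any library. The lowest green bars are those of Sprr2a1 (3.72%), Sprr2a2 (3.55%), Flg (20.8%), Hrnr (30.9%) and Flg2 (34.7%), and both Sprr2k and Sprr3, without a count, are at 100%.

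The comparison asked how each family differed between NCAM-selected and unselected epidermal cells. Flg and Flg2, of the fused type, and Ivl, of the scaffold, were higher in the NCAM-enriched libraries, and no member was called lower by edgeR. Of 62 members, 37 had a count in some library, 10 had one in all 6 libraries, and 17 passed the count filter. A member low in bulk skin passed the filter only through its level in the NCAM-enriched group, so these counts describe the tested members alone. By edgeR's quasi-likelihood test 3 of 17 were higher (Flg, Flg2 and Ivl; adjusted p at most 0.05), beside 1.04% of all 13157 genes tested, and 0 were lower, beside 1.55%. At an unadjusted p under 0.05 there were 6 higher and 5 lower members, beside 8.73% and 10.2% of all genes tested. DESeq2 called 5 members higher and 4 lower, beside 5.06% and 7.10% of all genes with a value, and limma-voom 3 and 3, beside 2.67% and 6.45%. Without NCAM-enriched library 2 edgeR called 7 of 22 tested members higher and 2 lower, beside 3.09% and 4.12%. The groups did not overlap for 6 members that were higher, where 11.1% of all genes tested were, and for 5 that were lower, where 19.3% were. The median log2 fold change was 1.24 over the 17 tested members and -0.07 over all genes tested. In bulk samples, fewer cells of a type and less RNA per cell cannot be told apart.

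**Figure D2:**
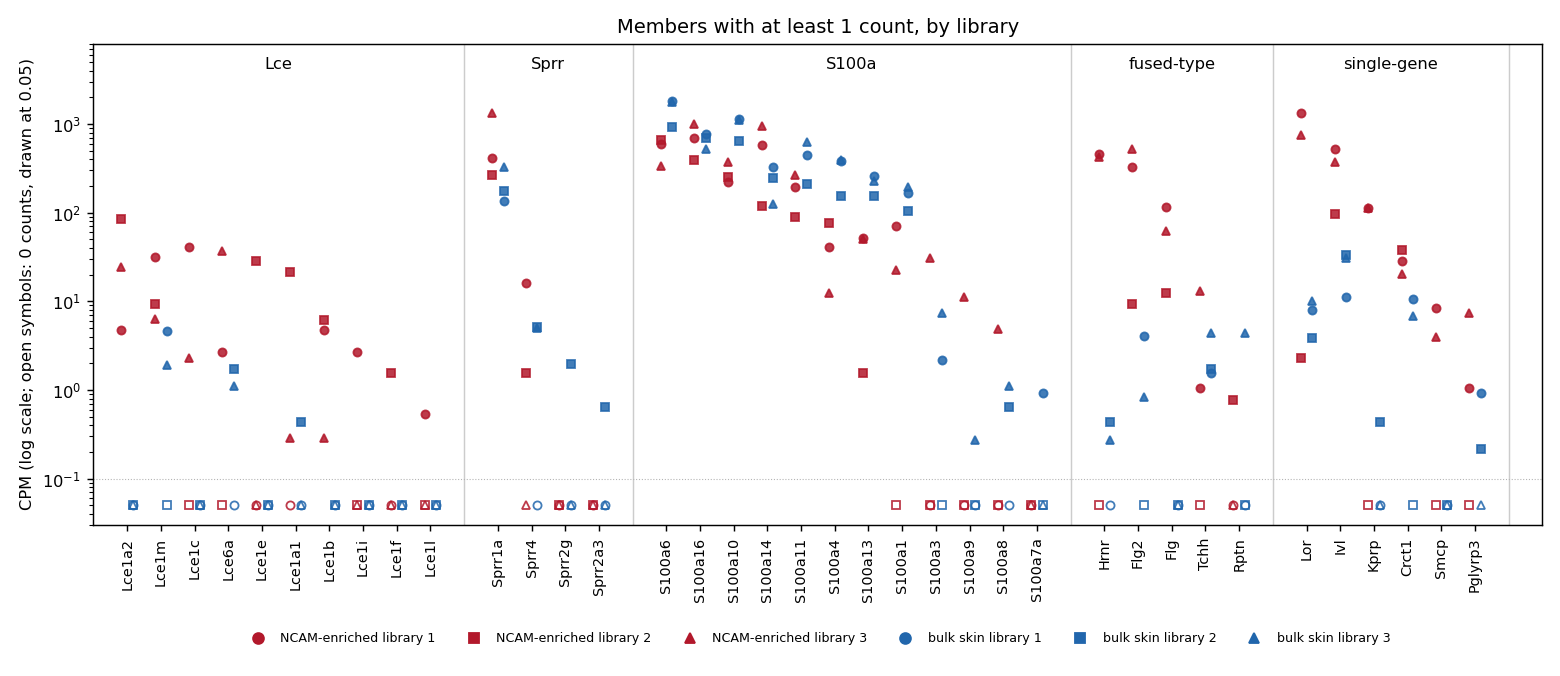
Normalised CPM (log axis) of the 37 members with a count, by family, with 1 symbol per library: NCAM-enriched libraries in red, bulk skin in blue, and open symbols at 0.05 for libraries without a count. NCAM-enriched library 2 (squares) lies far below libraries 1 and 3 for Lor, Hrnr, Flg2 and Kprp but is the highest for Lce1a2, and the blue symbols lie above the red ones for S100a4, S100a6 and S100a10.

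Ivl, which encodes involucrin, the scaffold laid down early in envelope assembly, stood at 526, 97.4 and 375 CPM over the NCAM-enriched libraries (1, 2 and 3) and at 11.2, 33.5 and 31.0 CPM in the bulk skin ones. All NCAM-enriched libraries lay above all bulk skin libraries. Its mean was 333 ± 217 against 25.2 ± 12.2 CPM (SD, n = 3), and its log2 fold change was 3.72 ± 0.70 (SE; edgeR adjusted p = 0.0338). With the replicate number as a block the adjusted p was 0.0920. Lor encodes loricrin, the most abundant protein of the mature envelope. It had 2498, 3 and 2632 counts in the NCAM-enriched libraries and 26, 18 and 37 in bulk skin. Libraries 1 and 3 were far above bulk skin while library 2, at 2.32 CPM, was below all 3 bulk skin libraries (3.89 to 10.1 CPM), so the groups overlapped. Its log2 fold change of 6.55 ± 1.61 was not called (edgeR adjusted p = 0.0670, DESeq2 3.04e-06, limma-voom 0.371), and without NCAM-enriched library 2 it was 7.13 (edgeR adjusted p = 0.000560).

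Of the other single genes, Kprp, a proline-rich protein of keratinocytes, had 215, 0 and 400 counts against 0, 2 and 0. It did not pass the filter, and its pooled counts gave a ratio of 528 (95% counting interval 145 to 4366), and a bound of at least 210.1-fold once bulk skin library 2 was left out, which held both of its bulk skin counts. Without NCAM-enriched library 2 it was tested and called higher, as were Hrnr, Lor, Flg, Flg2, Ivl and Lce1a2. Kprp and Hrnr passed the filter there only because the library without a count of them was left out. They passed it through the NCAM-enriched group alone, so their calls are no further evidence of a difference. Crct1, a cysteine-rich gene beside the Lce cluster, had 28.2, 37.9 and 20.1 CPM in the NCAM-enriched libraries and 10.6, 0 and 6.85 in bulk skin. Library 2 was the highest here, unlike for Lor and Kprp, and the groups did not overlap (log2 fold change 2.30 ± 1.36, adjusted p = 0.417). Smcp, best known from sperm mitochondria, had 16, 0 and 14 counts and none in any bulk skin library, a difference of at least 17.2-fold when bulk skin is set to a floor of 3 counts for the group. That bound was 11.1-fold without NCAM-enriched library 1 and 10.3-fold without bulk skin library 2. Pglyrp3, a peptidoglycan recognition protein, had 2, 0 and 26 counts against 3, 1 and 0.

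Flg encodes profilaggrin, whose units bundle keratin filaments. It had 219, 16 and 217 counts in the NCAM-enriched libraries and 0 in each bulk skin library. Its mean was 63.4 ± 52.0 CPM (SD, n = 3), with 12.4 CPM in library 2 against 116 and 61.6 in libraries 1 and 3. The fold is a lower bound set by that floor. It was at least 258-fold with all libraries (edgeR adjusted p = 0.0253), at least 309-fold once NCAM-enriched library 2 was left out, and at least 154-fold once bulk skin library 2 was. Flg2, its paralogue, had 614, 12 and 1842 counts against 13, 0 and 3. Library 2 was above the bulk skin libraries in CPM (9.27 against 4.04, 0 and 0.823) but far below libraries 1 and 3. The log2 fold change of Flg2 was 7.52 ± 1.62 (edgeR adjusted p = 0.0496, limma-voom 0.103), and ran from 6.70 without NCAM-enriched library 3 to 9.40 without bulk skin library 1. The calls of Flg, Flg2 and Ivl did not hold when any one bulk skin library was left out (adjusted p 0.133 to 0.253) or when NCAM-enriched library 1 was (0.0559 for Flg, 0.0828 for Flg2 and 0.0691 for Ivl).

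Hrnr encodes hornerin, a repeat protein related to profilaggrin. It had 858, 0 and 1505 counts against 0, 2 and 1, and did not pass the filter, being high in 2 libraries only. Its pooled ratio was 1351 (counting interval 462 to 6557), or 1675 without NCAM-enriched library 2 and 2422 (434 to 95712) without bulk skin library 2. Libraries 1 and 3 held it at 456 and 427 CPM, close to each other, and library 2 held none. The other fused-type genes were low. Tchh, trichohyalin of the inner root sheath and hair medulla, had 2, 0 and 46 counts against 5, 8 and 16, with overlapping groups. Rptn (repetin) had 0, 1 and 0 counts against 0, 0 and 16, and Tchhl1 had none, which allows up to 0.448 CPM in NCAM-enriched cells and 0.261 in bulk skin.

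Promoters are printed for the 3 members called higher, for Sprr1a, and for S100a6, whose log2 fold change was below 0, so that the members' start regions can be compared. Sequences are from RefSeq (GRCm38.p6), 300 bases each, from 250 before to 50 after the annotated start. Entries were found for 54 of 62 members (58 promoters). Capitals mark matches on either strand to TATAAA, the core of the box that sets many start sites, and to TGANTCA. The latter is a loose pattern for AP-1 factors, in which N is any base. The narrower form with only C or G at N was not counted apart.
Flg promoter, chr3:93273296-93273595, plus strand: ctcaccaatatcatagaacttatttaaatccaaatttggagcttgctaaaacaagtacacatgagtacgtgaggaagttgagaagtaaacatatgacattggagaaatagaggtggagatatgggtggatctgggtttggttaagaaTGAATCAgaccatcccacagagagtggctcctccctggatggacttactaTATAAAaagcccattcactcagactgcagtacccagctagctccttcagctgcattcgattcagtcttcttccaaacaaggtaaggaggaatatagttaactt
Flg2 promoter, chr3:93197023-93197322, plus strand: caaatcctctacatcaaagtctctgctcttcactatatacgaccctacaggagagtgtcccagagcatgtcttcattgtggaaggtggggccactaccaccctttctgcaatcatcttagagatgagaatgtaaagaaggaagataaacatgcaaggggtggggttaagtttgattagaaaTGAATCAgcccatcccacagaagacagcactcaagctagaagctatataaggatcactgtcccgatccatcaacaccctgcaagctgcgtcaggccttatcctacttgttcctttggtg
Ivl promoter, chr3:92573686-92573985, minus strand: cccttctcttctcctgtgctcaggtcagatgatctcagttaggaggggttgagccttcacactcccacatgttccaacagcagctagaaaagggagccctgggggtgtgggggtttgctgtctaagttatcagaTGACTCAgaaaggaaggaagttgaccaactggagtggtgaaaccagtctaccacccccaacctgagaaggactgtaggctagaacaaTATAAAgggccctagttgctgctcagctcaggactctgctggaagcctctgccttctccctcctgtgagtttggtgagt
Sprr1a promoter, chr3:92485832-92486131, minus strand: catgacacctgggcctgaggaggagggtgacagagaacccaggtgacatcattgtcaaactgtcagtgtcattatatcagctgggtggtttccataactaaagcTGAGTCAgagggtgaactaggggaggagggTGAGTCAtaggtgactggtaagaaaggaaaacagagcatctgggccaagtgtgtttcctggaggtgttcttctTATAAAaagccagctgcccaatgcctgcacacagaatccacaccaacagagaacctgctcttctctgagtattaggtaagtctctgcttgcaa
S100a6 promoter, chr3:90612644-90612943, plus strand: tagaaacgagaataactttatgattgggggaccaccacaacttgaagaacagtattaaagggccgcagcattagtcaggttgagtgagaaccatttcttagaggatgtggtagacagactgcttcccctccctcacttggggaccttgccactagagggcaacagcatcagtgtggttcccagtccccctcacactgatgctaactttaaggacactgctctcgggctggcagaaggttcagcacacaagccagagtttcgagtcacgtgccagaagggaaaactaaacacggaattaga
The TATAAA letters began at -53 from the annotated start in Flg, at -29 in Ivl and at -43 in Sprr1a. The TGANTCA matches began at -103 in Flg and -69 in Flg2 (both TGAATCA), at -116 in Ivl (TGACTCA), and at -146 and -116 in Sprr1a (both TGAGTCA). The S100a6 window held neither, and in those printed no match of one motif overlapped a match of the other. TATAAA was in 39.7% of the members' promoters (23 of 58) and 13.6% of all 32851 promoters. TGANTCA was in 29.3% (17 of 58) and 7.81%. By family, TGANTCA was in 9 of 14 Sprr, 4 of 6 fused-type, 2 of 3 single-gene, 2 of 15 S100a and 0 of 20 Lce promoters. TATAAA was in 10 of 14 Sprr, 3 of 6 fused-type, 2 of 3 single-gene, 4 of 15 S100a and 4 of 20 Lce promoters. How alike the promoters of a family are was not measured, so they may not be independent. A match describes letters in the window and is not a site.

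The Lce genes encode late cornified envelope proteins, added from inside the envelope in the last steps of cornification. Their summed CPM was 88.7, 151 and 70.9 in the NCAM-enriched libraries and 4.66, 2.16 and 3.02 in bulk skin. No library of either group crossed into the other, and the sums differed by 4.98 on the log2 scale (geometric means, SD 0.56 and 0.56; two-sided exact permutation p = 0.1, which is the lowest value 3 against 3 libraries allow). Between 6 and 7 of 21 Lce genes had a count in each NCAM-enriched library, against 1 or 2 in bulk skin (exact permutation p = 0.1). Which Lce gene was counted differed from library to library. The leading gene was Lce1c in library 1 (46.7% of the Lce counts), Lce1a2 in library 2 (55.6%) and Lce6a in library 3 (52.4%).

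Lce1a2 had 9, 109 and 87 counts in the NCAM-enriched libraries and 0 in bulk skin. It was at least 117-fold higher, a bound that dropped to 68.0-fold when NCAM-enriched library 2 was left out and 70.0-fold when bulk skin library 2 was, with an edgeR adjusted p of 0.0510 (DESeq2 1.45e-06, limma-voom 0.00773), the smaller of the 2 Lce genes tested. Lce1m had 60, 12 and 22 counts against 15, 0 and 7, without overlap in CPM (log2 fold change 2.84 ± 1.53, adjusted p = 0.367). Lce1a1 and Lce1e were counted mainly in library 2 (28 of 29 and all 37 NCAM-enriched counts, so that without it both were at or under the floor), Lce1c mainly in library 1 (78 of 86) and Lce6a mainly in library 3 (131 of 136). Lce1b had 9, 8 and 1 counts against 0. Neighbouring Lce1 genes share the window printed above, so a read of one may be counted for another. All 6 Lce3 genes, which are known from wounded and inflamed skin, had 0 counts in every library, and their windows found once ran from 50.7% to 87.9%. Of 14 Lce1 genes 9 had a count, with 477 counts over the NCAM-enriched libraries and 24 over bulk skin.

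The Sprr genes encode small proline-rich proteins, cross-bridges of the envelope whose composition varies with the epithelium. Sprr1a took 95.8% to 100% of the family's counts in each library. It had 770, 340 and 4715 counts in the NCAM-enriched libraries and 439, 812 and 1189 in bulk skin. In CPM these were 409, 263 and 1338 against 136, 176 and 326, so library 2 lay below the highest bulk skin library. Its log2 fold change was 1.66 ± 0.65 (adjusted p = 0.207), and 0.60 without NCAM-enriched library 3. Sprr4 had 30, 2 and 0 counts against 0, 24 and 18, and gave no direction that held over the alternatives. The 11 Sprr2 genes had 12 counts in all, 9 of Sprr2g and 3 of Sprr2a3, and all in bulk skin library 2. Sprr3, typical of internal stratified epithelia, and Sprr1b had none. The Sprr sums overlapped between groups (log2 ratio 1.39, exact permutation p = 0.2, and 0.73 without NCAM-enriched library 3).

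The S100a genes had the opposite sign. Their summed CPM was 2452, 1589 and 3065 in the NCAM-enriched libraries and 5318, 3143 and 5001 in bulk skin. The NCAM-enriched libraries were lower without overlap, by 0.94 on the log2 scale (exact permutation p = 0.1). Without S100a6, the most abundant member, the log2 ratio was -0.80 and the groups overlapped (exact permutation p = 0.2). Of 8 tested S100a genes, 6 lay below 0 and 2 above. EdgeR called 0 of them (5 lower at an unadjusted p under 0.05), DESeq2 4 lower (S100a4, S100a6, S100a10 and S100a13) and limma-voom 3 (S100a4, S100a6 and S100a10).

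S100a4, a calcium-binding protein of fibroblasts and leukocytes, had 40.9, 76.5 and 12.5 CPM in the NCAM-enriched libraries and 379, 155 and 392 in bulk skin. The groups did not overlap, and library 2 was the highest of the NCAM-enriched 3. The log2 fold change was -2.85 ± 0.68 (edgeR adjusted p = 0.0636, DESeq2 0.00174). S100a4 shares exonic bases with Gm42674, and 43.7% of its windows were found once. S100a10, the partner of annexin A2, had 222, 252 and 377 against 1135, 645 and 1122 CPM (log2 fold change -1.77 ± 0.42, edgeR adjusted p = 0.0614). S100a6, calcyclin, had 600, 658 and 336 against 1822, 931 and 1792 CPM (-1.51 ± 0.46, adjusted p = 0.111). In both genes every NCAM-enriched library was below every bulk skin library. S100a1 and S100a13, neighbours at the start of the interval, had 0 and 2 counts in NCAM-enriched library 2. They had 133 and 97 in library 1, 79 and 180 in library 3, and 482 to 835 in each bulk skin library. Their edgeR adjusted p was 0.305 for S100a1 and 0.146 for S100a13. Without NCAM-enriched library 2, edgeR called S100a13 and S100a4 lower, and S100a1 was not called.

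Of the other tested S100a genes, 2 lay above 0 and 1 below. S100a14 had 579, 118 and 956 CPM against 329, 245 and 127 (log2 fold change 1.24 ± 0.69, adjusted p = 0.385, and 0.53 without NCAM-enriched library 3), and S100a16, its neighbour, had 694, 393 and 999 against 781, 695 and 516 (0.07 ± 0.43, adjusted p = 0.957), a difference whose sign varied over the alternatives. S100a11, which is cross-linked into the envelope, had 193, 88.9 and 263 against 443, 212 and 623 CPM, with overlapping groups (-1.22 ± 0.53, adjusted p = 0.255), and shares windows with Gm12854, Gm29240 and Gm7665, among others. S100a8 and S100a9, which form calprotectin in neutrophils and stressed keratinocytes, were counted in NCAM-enriched library 3 (17 and 39 counts) and not in libraries 1 and 2, against 7 and 1 counts in bulk skin. The pooled S100a9 ratio of 66.9 (counting interval 11.3 to 2709) therefore rests on 1 library: without NCAM-enriched library 3 both groups were at or under the floor, and without bulk skin library 3 the difference was at least 15.2-fold. In NCAM-enriched library 3, 11 of 12 neutrophil markers were at 0, Ly6g, Mpo, Camp and Ngp among them, and Cxcr2 had 2 counts. NCAM-enriched library 1, without a count of S100a8 or S100a9, also had 11 of the 12 at 0. In bulk skin libraries 1, 2 and 3, 10, 6 and 9 of the 12 were at 0, so these markers were seldom counted in either group. The source of the S100a8 and S100a9 counts was not tested. Over all 3 NCAM-enriched libraries 8 of the 12 were at 0.

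Compared per length (CPM per kb of windows found once), the order of the members differed between groups. In the NCAM-enriched group Sprr1a led (885), followed by S100a6 (724), S100a11 (669), S100a16 (645), S100a10 (446) and Lor (400). In bulk skin the order was S100a6 (2064), S100a4 (1575), S100a11 (1565) and S100a10 (1521), then S100a16 (616), with Lor at 4.26. The first 4 in the NCAM-enriched group do not differ beyond the spread of the libraries of Sprr1a (SD 583 on a mean of 670 CPM). Whether reads from windows found more than once are in these counts is not known, so levels of genes with many such windows are uncertain. This bears most on S100a4 and S100a11, with only 0.196 and 0.272 kb of windows found once. Per kb of all exonic bases, bulk skin held S100a6 at 1108, S100a11 at 833, S100a10 at 798 and S100a4 at 529. In the NCAM-enriched group S100a11 was then at 356, below S100a16 (430).

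The sums over families repeat these directions. The fused-type sum was 900, 22.4 and 1024 CPM in the NCAM-enriched libraries and 5.59, 2.16 and 9.87 in bulk skin (log2 ratio 5.80, SD 3.13 and 1.11). It was 7.61 without NCAM-enriched library 2, 4.94 without library 1, 4.85 without library 3 and 5.21 without bulk skin library 2. The single-gene sum was 2005, 138 and 1267 against 30.7, 38.0 and 48.0 (log2 ratio 4.20, and 5.38 without NCAM-enriched library 2 or 3.45 without library 1). In both, library 2 was the lowest NCAM-enriched library but stayed above bulk skin (exact permutation p = 0.1 for each). Over all 62 members the sums overlapped and differed by -0.07 on the log2 scale (exact permutation p = 1), the S100a genes being most of the counts in bulk skin and in library 2.

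**Figure D3:**
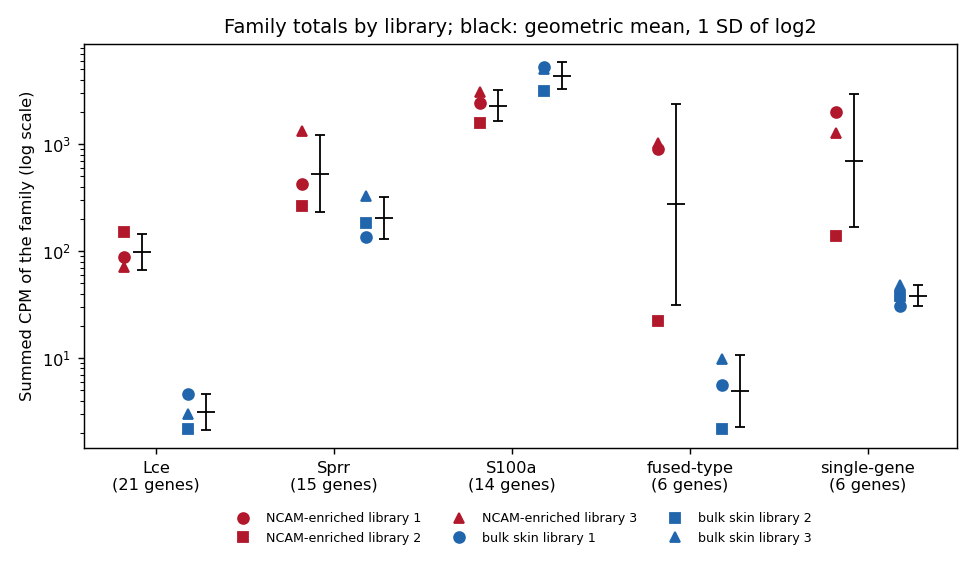
Summed normalised CPM of each family (log axis) by library, with the geometric mean and 1 SD of the log2 values in black. The Lce, fused-type and single-gene sums of the 3 NCAM-enriched libraries (red) lie above all bulk skin sums (blue), the S100a sums lie below, and the Sprr sums overlap.

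Detection was compared library by library. At least 1 count was found for 27, 21 and 28 members in the NCAM-enriched libraries and 18, 21 and 22 in bulk skin (mean 25.3 ± 3.79 against 20.3 ± 2.08, SD, n = 3; exact permutation p = 0.3). After thinning to 1343190 counts the expected means were 24.7 ± 3.21 and 18.6 ± 1.47 (exact permutation p = 0.1). Of 25 members without a count anywhere, 11 were Lce, 11 Sprr, 2 S100a (S100a2 and S100a5) and 1 fused-type. Another 9 were counted only in the NCAM-enriched group, 7 of them Lce genes, and 3 only in bulk skin. Members without a count include genes whose windows are all found once (S100a2, S100a5, Sprr2k, Sprr3 and Tchhl1), as well as Sprr2a1 and Sprr2a2, whose windows are nearly all shared.

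Along the chromosome all tested members below 0 lay at the ends, but not all tested genes of the ends lay below 0. The values overlapped, S100a14 at an end (log2 fold change 1.24) being above Sprr4 in the middle (0.77). From the first to the last of the Lce, Sprr, fused-type and single genes, 92014583 to 93471980 (1.46 Mb), all 9 tested members lay above 0, and the S100a genes, which flank this stretch on both sides, held all 6 members below 0. Members of the stretch that were low in bulk skin entered the test only through their NCAM-enriched level, and those counted mainly in bulk skin (Rptn, Sprr2g and Sprr2a3) did not pass the filter, so the filter bears on this count. Of the 8 tested S100a genes, S100a10 and S100a11 at the far end and S100a1, S100a4, S100a6 and S100a13 at the near end were each lower in value, while S100a14 and S100a16 at the near end were not. Of 59 genes in the interval that are not members, 2 were tested and 0 called. They were 2310046K23Rik near Sprr4 and Ivl, with 628 against 6.01 CPM (log2 fold change 6.70 ± 1.46, adjusted p = 0.0510), and Pglyrp4 beside the near S100a genes, with 109 against 68.2 CPM (0.68 ± 0.95, adjusted p = 0.769).

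**Figure D4:**
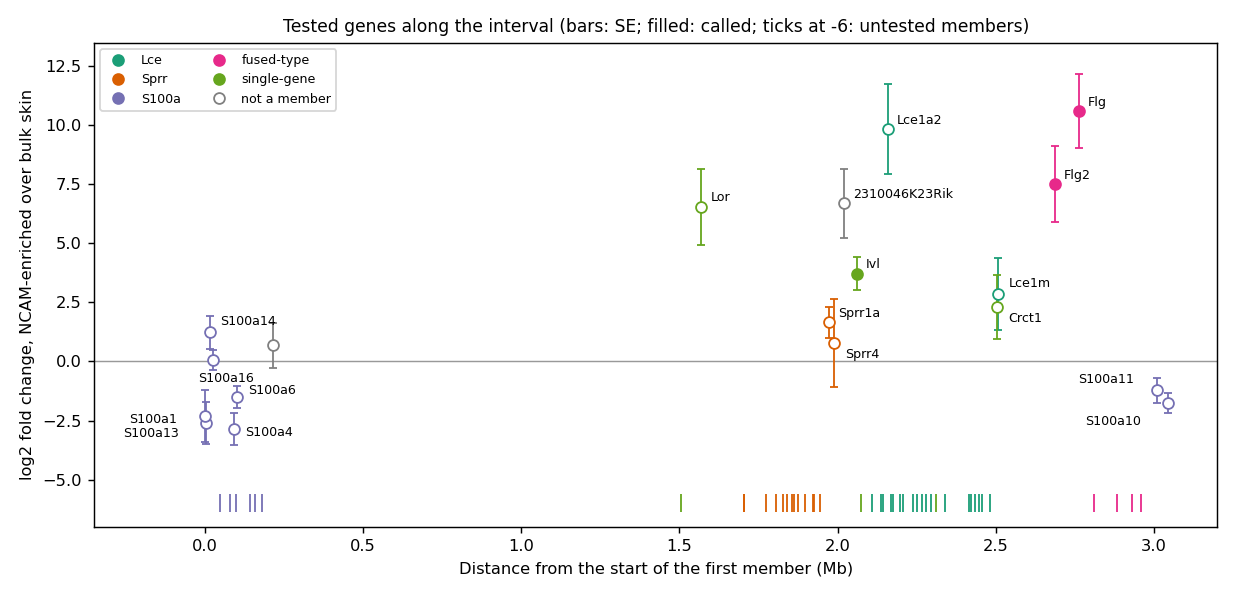
Fitted log2 fold change (NCAM-enriched over bulk skin, edgeR) against distance from the start of the first member (Mb), with SE bars, for tested genes of the interval. Filled symbols are called (Flg, Flg2 and Ivl), ticks at the bottom mark untested members, and the symbols below 0 are S100a genes at both ends. The fitted values of Flg and Lce1a2, with 0 counts in bulk skin, depend on the prior count and are not bounds.

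Genes that act with these proteins were read from a list chosen with earlier results of these data known. Of 30 envelope partners (cross-linking enzymes, proteases and their inhibitors, corneodesmosome proteins and suprabasal keratins) 27 were tested, 13 were higher and 0 lower, with a median log2 fold change of 3.54. Spink5, the inhibitor of epidermal proteases, had 3886, 1415 and 4763 counts against 89, 248 and 217 (adjusted p = 0.00494), and Krt77, a suprabasal keratin, had a log2 fold change of 4.61 ± 0.56 (adjusted p = 0.00884). Cst6, a protease inhibitor, had 13910, 259 and 17356 counts against 3894, 11841 and 11213 and was not called (0.87 ± 0.99, adjusted p = 0.704). The summed CPM of this list was 50785, 17796 and 29632 against 3357 to 5649 in bulk skin, so library 2 was above bulk skin here, which Lor was not. Of 23 regulators of the complex, all tested, 5 were higher and 0 lower, among them Zfp750, an epidermal differentiation factor (log2 fold change 2.69 ± 0.37, adjusted p = 0.0140), and Pou3f1 (3.60 ± 0.59, adjusted p = 0.0216). Junb, an AP-1 subunit, had a log2 fold change of -0.12 ± 0.55 (adjusted p = 0.938). Of 4 stress keratins 3 were tested. Krt17 was higher (3.15 ± 0.65, adjusted p = 0.0437), while Krt6a had 0, 0 and 132 counts against 69, 134 and 114, and Krt16 had 2, 1 and 38 against 46, 116 and 8. Among the NCAM-enriched libraries Krt6a, Krt16, S100a8 and S100a9 were all highest in library 3. That library was also the highest for 12 members, against 13 for library 1, and for Krt5, Krt14 and Krt15. It held Krt6a at 37.5 CPM (21.4 to 31.3 in bulk skin) and Krt16 at 10.8 CPM (2.19 to 25.1 in bulk skin). A link between these genes was not tested.

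Markers of T cells and of Langerhans and myeloid cells were lower in the NCAM-enriched group, in which the S100a sums also lay lower. Of 8 T cell genes 7 were lower, with a summed CPM of 42.5 to 174 against 4153 to 4955. Of 8 Langerhans and myeloid genes 6 were lower, with 55.6 to 331 against 11263 to 18588. Nkg7 and Cd207, markers of cytotoxic lymphocytes and Langerhans cells, had 1 count each in the NCAM-enriched group. Of 12 neutrophil genes Mmp9 was tested and was lower. Of 10 basal keratinocyte genes 0 were called by edgeR, with a median log2 fold change of 0.05. Their summed CPM was 10426, 8658 and 32416 in the NCAM-enriched libraries and 13178 to 17443 in bulk skin. Libraries 1 and 2 lay below bulk skin and library 3 above, so the median does not show equal levels. The 6 fibroblast genes had 0 called, with a sum over the NCAM-enriched libraries that ran from 41.7 to 33003. Of the inner root sheath and hair shaft list 1 of 9 genes present was tested and 0 were called, and 1 of 6 melanocyte genes was tested and 0 were called. The part of these cells in the S100a values was not tested.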

How the data were processed

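The authors deposited raw read counts per gene, with no normalization, for 54532 genes in 6 libraries (total 1343190 to 4481830 counts). According to the study's methods and processing notes, adapters were clipped, abundant sequences removed, reads aligned to GRCm38 with STAR and counted with featureCounts. The sources used here give neither the annotation release nor the strand setting nor the treatment of multi-mapping reads. Strand is not kept by Smart-seq2, and reads of overlapping genes cannot be told apart.

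Groups were taken from the labels. The main test was the quasi-likelihood F-test of edgeR 4.0.16 (R 4.3.3), after filterByExpr on the groups and TMM scaling, with p-values adjusted by Benjamini-Hochberg over the 13157 genes kept. A call means adjusted p up to 0.05. The fit's common biological coefficient of variation was 0.744 over these genes. CPM divide each count by the library size after TMM scaling. SE was derived from the test, as the size of the fitted log2 change over the root of F. Exact 95% intervals of pooled counts, and the floor of 3 counts per group, describe counting error alone, since reads are PCR copies. Family sums and detection were compared with exact two-sided permutation tests. Windows of 50 bases were matched among GENCODE M21 transcripts, in which 54495 gene IDs were found and 37 were not. Alternatives were DESeq2 1.42.0, limma-voom (limma 3.58.1), other scaling and filters, a robust fit, the replicate number as a block, and leaving out each library. Between libraries of the same replicate number, deviations from group means correlated at 0.0226, 0.000250 and -0.00436, so no pairing was seen. NCAM-enriched libraries correlated at only 0.596 to 0.719 with each other, a spread that could hide a shared source. Pairing is therefore not excluded.

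Members and lists were chosen with earlier results of these data known. Full values were given for members called by edgeR, the 5 most abundant of each family and members going against their family, other members being named by their counts. S100a1, S100a4, S100a13 and S100a9 were given fuller values after their counts had been seen. Genes named from the other lists were drawn from the 2 tested genes with the smallest p and the most abundant that was not called, and not all of these are printed. The neutrophil markers named as at 0, and Cxcr2, were added after their counts had been seen. Figures were drawn with matplotlib 3.10.9.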

Additional observations from a re-analysis of the deposited data

How the results depend on the processing

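Members called higher, 3 by edgeR with all libraries, were 5 by DESeq2 and 9 of 37 tested when every gene with a count entered the fit. They ranged from 0 to 7 without 1 library (0 when any bulk skin library was left out, and 1, 7 and 5 when NCAM-enriched library 1, 2 or 3 was). Shares of all genes called were given above only for DESeq2, limma-voom, and edgeR with all libraries or without NCAM-enriched library 2. For the other settings the counts here cannot be set against the rate over all genes. Members called lower, 0, were 4 by DESeq2, 3 by limma-voom, 1 with no scaling factor and 5 when every gene with a count was fitted, and ranged from 0 to 2 without 1 library. These lower calls were all S100a genes, so the S100a count was 4, 3, 1 and 5 and 0 to 2 likewise. Lce genes called higher, 0, were 1 by DESeq2, 1 by limma-voom, 1 with no scaling factor and 2 when every gene with a count was fitted (0 to 2 without 1 library). Sprr genes called higher, 0, were 1 in that fit. Fused-type genes called higher, 2, were 1 by limma-voom, 1 with upper-quartile factors and 1 with at least 10 counts in 3 libraries (0 to 3 without 1 library). Single genes called higher, 1, were 2 by DESeq2, 3 in the fit of every gene with a count and 0 under a replicate block (0 to 3 without 1 library). Under the replicate block 2 members, Flg and Flg2, were called higher. The difference in detected members reversed for Sprr from -0.667 to 0.167 without bulk skin library 2, and for S100a went from -1.33 to 0 at a minimum of 10 counts. The cause was not tested.

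With upper-quartile factors or none the median of all genes tested lay at -0.17 and -0.15, against -0.07 with TMM, by limma-voom at -0.37 and with the block at -0.36. Against 0, and not against these medians, S100a16 and Sprr4 changed sign in 6 and 3 of the alternatives and no other tested member did. With 3 libraries a group the exact permutation tests cannot go below 0.1, and 20 members with a count were not tested. A library of 1343190 counts sets 1 count at 0.773 CPM, so absence of the Lce3 and most Sprr2 genes holds only to the limits of 0.448 and 0.261 CPM given by 3 counts over a group. These limits apply only to reads that could be assigned to 1 gene. Windows found once were 3.72% for Sprr2a1, 3.55% for Sprr2a2 and 50.7% to 87.9% for the Lce3 genes. For these genes 0 counts may not bound the level.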
